A study of Mus musculus with 2 samples.

Results

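The genes described here encode the proteins of the cytosolic ribosome. They were chosen by name: every gene spot named Rpl, Rplp or Rps followed by a number was taken, with an optional closing a, x or l, which leaves out the ribosomal S6 kinases. The rule found 80 genes among 27598 gene names on the array, with 133 probes among 41174, and 49 of the 80 belong to the large subunit and 31 to the small subunit. A probe counted as measured if the same channel was well above background on both arrays, and 79 of the 80 genes had such a probe, among 9274 genes tested. The exception was Rpl3l, a paralog of Rpl3 used mainly in striated muscle.

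The RNA came from CD8+ T cells of C57BL/6 background that were sorted for low CD44 and low CD25, the surface profile of naïve cells, with more than 90% of sorted cells in the gate per the labels. Knockout cells were Bcl11bF/F/dLck-iCre, in which floxed Bcl11b is cut by a Cre recombinase under the distal Lck promoter, active late in T cell development. Control cells were labelled wild type, with no mention of a floxed allele or of Cre. Bcl11b encodes a zinc-finger regulator that commits progenitors to the T cell fate, and the arrays ask which transcripts differ in naïve CD8+ T cells that lack it. Each of 2 Agilent arrays compared 1 knockout sample, labelled with Cy5, with 1 wild-type sample, labelled with Cy3, and the labels call the arrays biological replicates without stating the animals' age, sex or number. Both arrays have the same dye orientation, so a dye effect specific to a probe and the genotype cannot be told apart. In bulk RNA, a smaller share of a cell type and less RNA per cell cannot be told apart either.

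A ribosome has a small subunit, which reads the mRNA, and a large subunit, which joins amino acids, and each holds 1 copy of most of its proteins. The ribosomal protein genes are among the most strongly transcribed in any cell. Their mRNAs typically begin with a cytosine followed by an unbroken row of pyrimidines, the terminal oligopyrimidine tract, through which mTOR signalling and the protein Larp1 control their translation. Resting T cells keep ribosome production low and raise it steeply after activation.

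RefSeq start-site windows for 59 of the 80 gene names were available in build GRCm38.p6, 71 windows in all, each with 250 bases before the annotated start and 50 from it on. The lines below show 30 bases, 15 on each side of the boundary, read 5′ to 3′ on the gene's strand. They were picked after the values were seen, to set members above 0 on both arrays (Rpl7a, Rpl35, Rpl38) beside members below 0 on both (Rpl28, Rps6, Rps9). Capitals mark a run of 7 or more C or T that covers the annotated start. Rps7, with the highest mean ratio, is shown last and has no such run in this window.
Rpl7a, chr2:26910792-26910821, plus strand: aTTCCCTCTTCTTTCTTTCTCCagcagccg
Rpl35, chr2:39005117-39005146, minus strand: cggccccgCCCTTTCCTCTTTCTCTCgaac
Rpl38, chr11:114668565-114668594, plus strand: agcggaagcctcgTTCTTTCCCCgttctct
Rpl28, chr7:4792950-4792979, plus strand: ccgcctctcgtgTCTCTCTTTCCgtctccg
Rps6, chr4:86857353-86857382, minus strand: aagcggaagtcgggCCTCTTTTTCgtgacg
Rps9, chr7:3704026-3704055, plus strand: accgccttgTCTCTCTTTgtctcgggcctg
Rps7, chr12:28635939-28635968, minus strand: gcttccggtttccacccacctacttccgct
The lines were picked from both sides of 0, so they do not show how the run divides between the sides.

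Among the 71 member windows, 19 (26.8%) had a run of 7 or more C or T across the start, against 5.28% of 32851 windows of all genes. The letters CTTTCC stood on the gene's strand in 36.6% of member windows and 14.1% of all windows of 300 bases, and on the other strand in 19.7% and 14.4%. CCGGAAG, the core bound by ETS and GABP factors, stood on either strand in 33.8% of member windows and 8.86% of all. These motifs were chosen after the windows were seen. Of the measured members with a single RefSeq window, 15 with the run had median log2 ratios of 0.37 and 0.20 on arrays 1 and 2, and 34 without it had medians of 0.51 and 0.51. Of the 15, 7 were above 0 on both arrays and 5 below on both. Of the 34, 20 were above 0 on both and 3 below on both. No test was made of these differences, and an annotated start can lie some bases from the one a cell uses.

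All values that follow are log2 ratios of knockout over wild type from background-corrected, loess-normalised intensities, given for array 1 and then array 2. The targeted gene was checked first. The brighter Bcl11b probe, in chromosome 12 at 108363444 to 108363503 (build mm8, as in the array annotation), had ratios of -1.45 and -1.73 and the dimmer probe -0.35 and -2.32. All 4 ratios were below 0, and Bcl11b did not pass the test over all genes (limma, adjusted p = 0.075). Whether either probe lies in the deleted exon was not checked. All 8 CD8 T cell markers exceeded background in all 4 samples, and 0 passed the threshold in limma (adjusted p from 0.356 to 0.978). Their median log2 ratios were 0.72 and 0.39. Of the 8, 6 were above 0 on both arrays, beside 30.9% of all genes, and 0 below on both, beside 30.8%. Some markers of other leukocytes moved with the genotype: 3 of 5 NK cell markers and 4 of 7 measured myeloid markers rose in the knockout channel, beside 1.24% of all genes. Of these, Fcer1g, Klrb1c, Adgre1, Csf1r, Itgax and Lyz2 counted as measured through the knockout channel alone. The count of rises is therefore partly set by the rule for a measured probe. Tyrobp, a signalling adaptor of NK and myeloid cells, was at 1.52 and 3.94, and Itgax, the CD11c integrin chain, at 2.29 and 2.26. Klrb1c was at 2.02 and 4.12, and Lyz2 at 4.03 and -0.38, so that the Lyz2 call rests on array 1. For Itgax, Klrb1c and Lyz2 the wild-type sample was well above background on 1 of 2 arrays, array 2, and their array 1 ratios were taken against a signal not well above background. Fcer1g was at least 20.6-fold higher, Adgre1 at least 3.70-fold and Csf1r at least 1.93-fold, each a bound because wild type was not well above background. The other measured NK and myeloid markers did not pass in limma. Nkg7 was at 0.50 and 0.53, Ncr1 at -0.20 and 0.86, C1qa at 0.88 and 1.20, C1qb at 0.57 and 0.90 and Cd14 at -0.40 and -0.08. Itgam was above background in no sample. The summed scanner signal before normalisation of the 5 NK markers was 131094 and 312178 in the knockout channel and 22892.6 and 43340.2 in wild type, and that of the 8 CD8 T cell markers was 926950 and 915460 against 152211 and 219176. For the 8 myeloid markers the sums were 23650 and 42064 against 7947.46 and 14488.1. No background was subtracted from these sums. A negative control spot had a median signal of 985 and 1865 in the knockout channel and 1087 and 1120 in wild type. Background is thus a large part of the myeloid sums. Of 6 B cell markers, 3 and 2 were well above background in the knockout samples and 1 and 2 in wild type. Cd79b was at -0.51 and -0.14, Ms4a1 at 1.28 and 0.38, and neither passed (adjusted p = 0.931 and 0.658, limma), while Cd79a and Blk were above background in no sample. Which cells these transcripts came from, and the part of such cells in the ribosomal protein values, was not tested.

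The ribosomal protein genes lay above the other genes on both arrays. Their median was 0.40 on array 1 and 0.47 on array 2, whereas the median of all 9274 genes was 0.05 and -0.01. Of the 79 genes, 47 had a ratio above 0 on both arrays, against 30.9% of all genes, which is 59.5% of the members. Only 13 were below 0 on both arrays, 16.5% of the members against 30.8% of all genes, and 19 had opposite signs, 24.1% against 38.2%. Ratios ran from -2.51 to 3.10 on array 1 and from -1.12 to 1.70 on array 2, so single members spread far more widely than the shift. Over the members the arrays had a Pearson correlation of 0.53 and a Spearman correlation of 0.56, compared with 0.29 and 0.32 over all genes. These are descriptions over genes that share the same 4 RNA samples and are not independent.

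**Figure D1:**
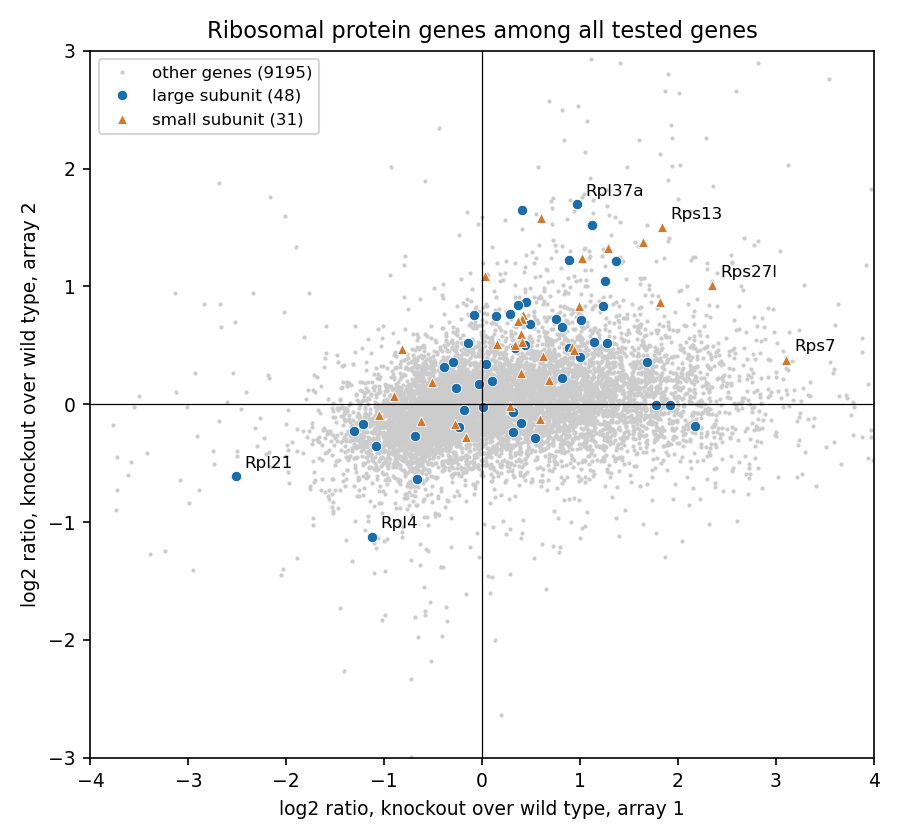
Each point is a gene, with its log2 ratio of knockout over wild type on array 1 (horizontal axis) and array 2 (vertical axis): grey for 9195 other genes, circles for 48 large subunit and triangles for 31 small subunit genes. Of the ribosomal protein genes, 47 are above 0 on both axes and 13 below 0 on both, and 34 genes fall outside the axes, which end at 4 and 3.

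Few members passed a test on their own. Of the 79, 2 rose in the knockout at an adjusted p under 0.05 (limma, Benjamini-Hochberg over all genes), beside 1.24% of all genes, and 0 fell, beside 0.248%. At an unadjusted p under 0.05, 17 members were higher, beside 8.18% of all genes, and 2 were lower, beside 1.56%. The spread was pooled over all genes, so the standard error of each mean log2 ratio was 0.50. A mean ratio had to reach 1.68 in size to pass, whatever the spread of that gene between arrays.

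Rps7, a small subunit protein that also binds Mdm2, had the highest mean. Its normalised log2 intensity was 17.37 and 17.16 in the knockout samples and 14.27 and 16.79 in wild type. The genotypes did not overlap, but the wild-type samples differed from each other by more than the knockout differed from wild type on array 2. The ratios were 3.10 and 0.38, the mean 1.74 ± 1.93 (SD, n = 2), which is 3.34-fold, with an adjusted p of 0.0358 (limma). Array 2 alone gives 0.38, so the call rests on array 1. It was lost without background correction, with scanner ratios, with scaled arrays and under either other filter on dim probes.

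Rps27l, a p53-responsive paralog of Rps27, was the other gene past the threshold. Its normalised log2 intensity was 14.71 and 14.17 in the knockout samples and 12.36 and 13.16 in wild type, with no overlap. The ratios were 2.34 and 1.01, the mean 1.68 ± 0.94 (SD, n = 2), which is 3.20-fold, with an adjusted p of 0.0493 (limma). The call was lost with scanner ratios, scaled arrays or no filter on dim probes. Its parent gene Rps27 stood at 0.60 and 1.58 and did not pass.

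Rps13, next in order, fell just short of the threshold with closer arrays. Its log2 intensity was 17.56 and 17.59 in the knockout samples and 15.73 and 16.09 in wild type. The ratios were 1.83 and 1.50, a mean of 1.67 ± 0.24 (SD, n = 2) with an adjusted p of 0.0524 (limma). Neighbouring values in this order (Rps27l at 1.68, Rps13 at 1.67) cannot be ranked at a standard error of 0.50.

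**Figure D2:**
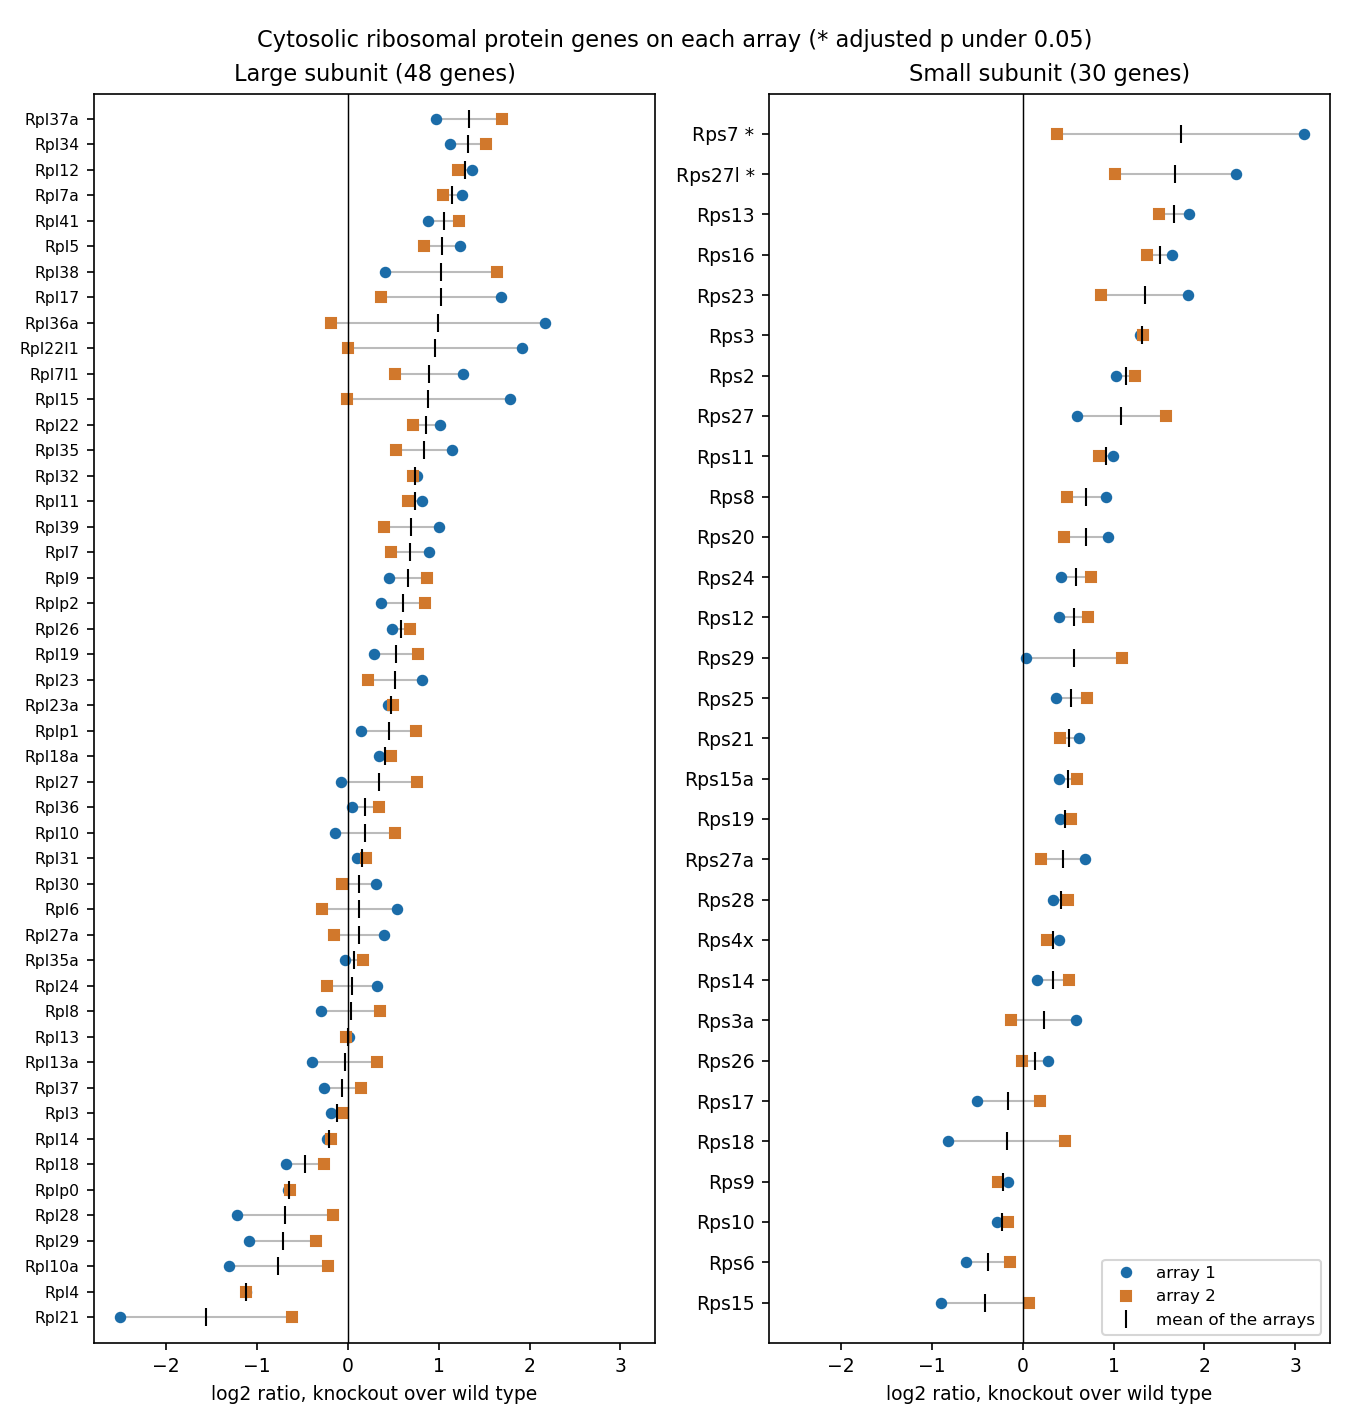
Log2 ratio of knockout over wild type for 48 large subunit genes (left) and 30 of the 31 small subunit genes (right), ordered by mean; circles are array 1, squares array 2, ticks their mean, and stars mark an adjusted p under 0.05. Rps7 and Rps27l carry a star, and Rps7 spans 0.38 to 3.10.

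Among small subunit proteins, the genes furthest above 0 on both arrays after Rps13 were Rps16, Rps3, Rps2, Rps27l and Rps23. Rps16, near the decoding region, stood at 1.65 and 1.37 (adjusted p = 0.105, limma). Rps3, which lines the mRNA entry channel and also acts in DNA repair, stood at 1.29 and 1.33, the smallest spread of these genes. Rps2, another protein of that channel, stood at 1.02 and 1.24, and Rps23, which reaches into the decoding centre, at 1.82 and 0.87. None of these 4 passed. The remaining small subunit genes included 4 that were below 0 on both arrays, among them Rps6 (-0.62 and -0.14), Rps10 (-0.28 and -0.17) and Rps9 (-0.17 and -0.27). These 3 had a mean above 0 when arrays were only centred on their medians, but there the median mean ratio of all genes was itself 0.68. Rps6 is the protein phosphorylated by S6 kinases. The small subunit as a whole had 22 of 31 genes above 0 on both arrays, 4 below on both and 5 with opposite signs.

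Among large subunit proteins, Rpl37a (0.97 and 1.70), Rpl12 (1.37 and 1.22), Rpl34 (1.12 and 1.52), Rpl7a (1.25 and 1.04), Rpl41 (0.88 and 1.23) and Rpl5 (1.23 and 0.83) lay highest on both arrays. None passed, with adjusted p between 0.209 and 0.454 (limma). Rpl12 forms the base of the stalk that recruits elongation factors, and Rpl41 is a very short peptide.

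At the other end stood Rpl21, Rpl4, Rplp0, Rpl29, Rpl18 and Rpl10a. Rpl4, whose loop reaches into the peptide exit tunnel, had a log2 intensity of 13.90 and 14.62 in the knockout samples and 15.03 and 15.74 in wild type. Its genotypes did not overlap, and the ratios were -1.12 and -1.12, a mean of -1.12 ± 0.0015 (SD, n = 2; adjusted p = 0.373, limma). It was the only member more than 2-fold lower on both arrays, beside 0.226% of all genes, while 8 members were more than 2-fold higher on both, beside 1.12%. Rpl21 had the lowest mean, with ratios of -2.51 and -0.61, and did not pass (adjusted p = 0.0848, limma). Its brightest probe was the dimmest among the members. The other kept probe of Rpl21 was at -0.35 and -0.16, and the mean of the gene was -0.91 over all kept probes and -0.25 at the 3′-most probe. Rpl10a was at -1.31 and -0.22, Rpl29 at -1.09 and -0.35 and Rpl18 at -0.68 and -0.27. All 3 had a mean above 0 when arrays were only centred on their medians, where the median mean ratio of all genes was also above 0, at 0.68.

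The medians of the subunits lay close together. The large subunit had medians of 0.38 and 0.36 over 48 genes and the small subunit 0.41 and 0.50 over 31 genes. Large minus small was -0.03 on array 1 and -0.14 on array 2, a mean of -0.09 ± 0.08 (SD, n = 2). With 2 arrays an exact two-sided sign-flip test cannot go below p = 0.5.

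Members with a shared role in the ribosome are given side by side. The stalk proteins spread from -0.65 to 1.29 in mean ratio. Rpl12 was high, Rplp1 (0.15 and 0.75) and Rplp2 (0.37 and 0.85) intermediate, and the probe named Rplp0 lay at -0.66 and -0.63. That Rplp0 probe had a mean above 0 when arrays were only centred, where the median mean ratio of all genes was 0.68. Both probes that carry the older name of this gene, Arbp, were brighter and lay at 0.57 and 0.70 and at 0.50 and 0.54, and by these all 4 stalk proteins were above 0 on both arrays. Rpl5 and Rpl11 travel together with a small ribosomal RNA and bind Mdm2 when ribosome assembly fails. By the brightest probe both were above 0, with Rpl11 at 0.81 and 0.66. The dimmer kept probe of Rpl11 was at -0.95 and -0.55. Of 7 exit tunnel proteins, 6 were above 0 on both arrays and Rpl4 was below, with means from -1.12 to 1.02. Of 4 proteins of the mRNA channel, 3 were above 0 on both arrays, and Rps26 was at 0.28 and -0.01. In the decoding centre Rps23 was high and Rps15 stood at -0.90 and 0.07. Rps27a, made as a fusion with ubiquitin, was at 0.68 and 0.20.

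Of the paralogs with restricted or alternative use, 3 were measured, and all had a mean ratio above that of their parent. Only Rpl7l1 was above its parent on both arrays. Rps27l passed the test, but on array 2 it was at 1.01, below Rps27 at 1.58. Rpl22l1, the paralog of Rpl22, was at 1.92 and 0.00 (adjusted p = 0.522, limma), beside 1.01 and 0.71 for Rpl22, so the arrays disagreed on it. Rpl7l1 was at 1.27 and 0.52, beside 0.89 and 0.47 for Rpl7. The difference between paralog and parent was not tested.

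Several ribosomal proteins carry names outside the rule, and these spread just as far. Fau, made as a ubiquitin-like fusion with a small subunit protein, rose by 1.90 and 1.90 (adjusted p = 0.0156, limma). Rpsa, the small subunit protein also known as the laminin receptor, was at -1.97 and -0.67, and Rack1, a scaffold on the small subunit, at -0.40 and 1.02. Of these 5 genes 1 rose and 0 fell in the limma test.

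The probes of a gene often gave different ratios. Of the 79 measured members, 31 had 2 or more kept probes. The range of mean log2 ratios over the probes of a gene had a median of 0.70 in these members and 0.36 in 2082 other genes with 2 or more kept probes. It was above 1 in 14 of 31 members (45.2%) and in 11.5% of the other genes. In 22 of 31 it exceeded the SD between arrays of the gene's brightest probe, whose median was 0.28. Kept probes lay on both sides of 0 in 18 of 31 members (58.1%) and in 31.1% of the other genes. In 25 of 31 members (80.6%) the brightest probe had the highest mean ratio, against 50.3% of the other genes.

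The widest ranges belonged to Rps3, Rpl7a, Rps18, Rps2, Rps13 and Rpl22l1. For Rps3 the probe at chr7:99351979-99351992 (mm8) gave 1.29 and 1.33, and the probe at chr7:99356436-99356710 gave -1.01 and -0.20. Both probes were well above background in both channels of both arrays, and the gene runs on the minus strand, so the first lies nearer the 3′ end. For Rpl7a the brightest probe gave 1.25 and 1.04, the next -1.17 and -0.31 and the dimmest -0.83 and -0.37. The brightest and the dimmest overlap over a minor part of their length, at chr2:26735183-26735242 and chr2:26735229-26735287. Opposite ratios thus came from neighbouring, partly shared stretches of Rpl7a. For Rps2 the brightest probe gave 1.02 and 1.24, and a probe of nearly the same brightness 1177 bases upstream gave -0.44 and -0.21. Rps13 gave 1.83 and 1.50 with its bright probe and 0.30 and -0.03 with a dim probe 74 bases away.

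Rps18 was the exception among these, since its brightest probe gave -0.82 and 0.47 and a slightly dimmer one nearer the 3′ end gave 0.95 and 1.64. The dim probe of Rpl22l1 gave -0.81 and -0.26, where the bright one gave 1.92 and 0.00. Along Rpl7 the ratio was highest at the 3′ probe (0.89 and 0.47), lower in the middle (0.08 and 0.19) and lowest at the 5′ probe (-0.86 and -0.30). Elsewhere the probes were close together. The narrowest ranges were those of Rpl10 (0.12), Rps3a (0.13) and Rpl23 (0.16), and all 4 Rpl29 probes lay below 0 on both arrays, with means from -0.72 to -0.54. The second Rpl10 probe is placed on chromosome 13 by the array annotation, away from the gene on X. Ribosomal protein genes have many near-identical processed pseudogenes, so some probes may read more than 1 locus. Probe sequences were not used here, and this was not checked.

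**Figure D3:**
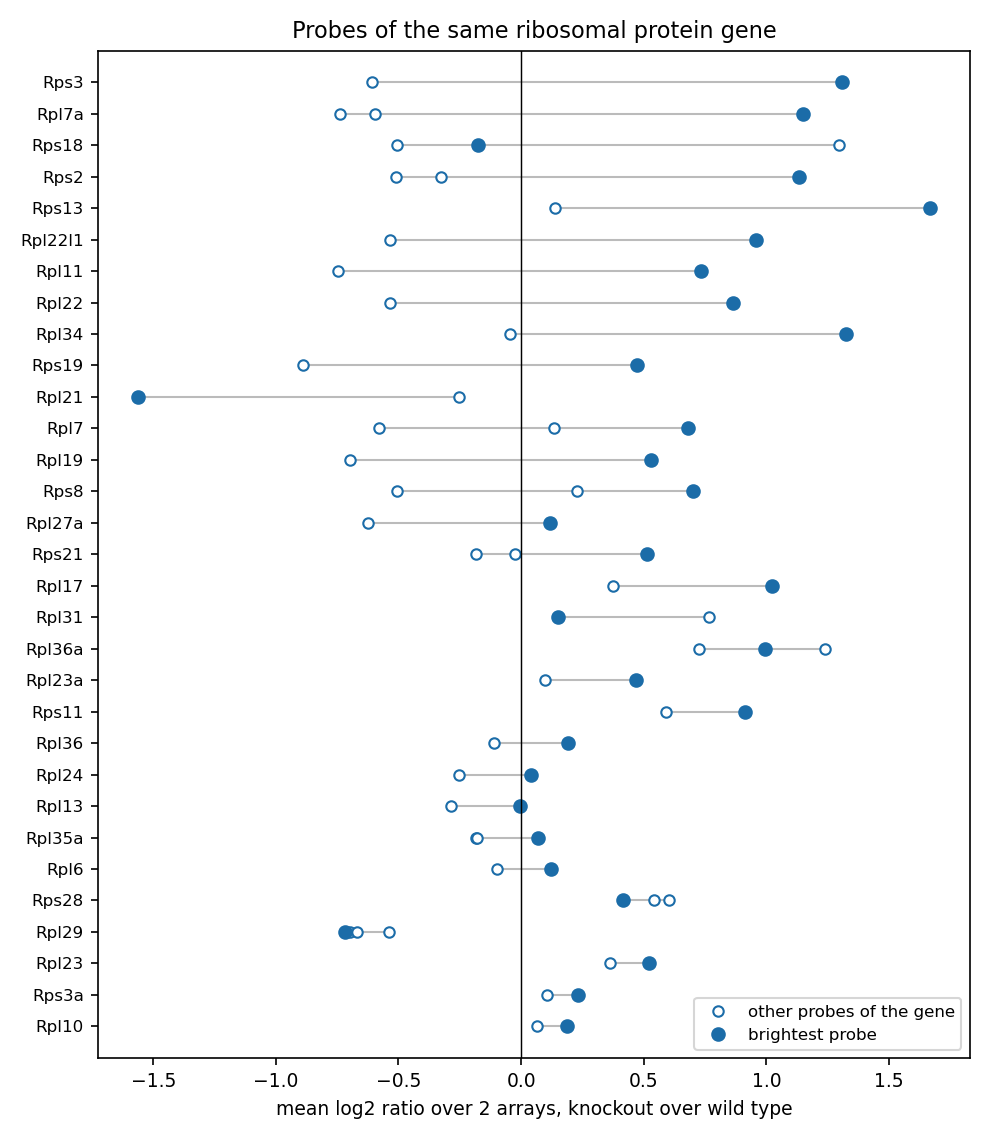
Mean log2 ratio of knockout over wild type over 2 arrays for every kept probe of the 31 ribosomal protein genes with 2 or more; the filled circle is the gene's brightest probe, open circles are its other probes, and genes run from the widest range (Rps3) to the narrowest (Rpl10). In 25 genes the filled circle is furthest right, and 18 genes have probes on both sides of 0.

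The stalk protein Rplp0 showed the same split under its 2 names. The probe named Rplp0 was printed 10 times per array, and its spots agreed closely: -0.66 ± 0.03 (SD over 9 spots used) on array 1 and -0.63 ± 0.03 (SD over 10 spots) on array 2. Both probes named Arbp, an older symbol of Rplp0 that the naming rule does not match, were above 0, at 0.57 and 0.70 and at 0.50 and 0.54. All 3 lie on the plus strand of chromosome 5, and the lower one, at chr5:115821920-115821979 (mm8), is the most upstream. The spread of its spots was far smaller than the difference between probes.

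Position along the gene was then compared over all genes with 2 or more kept probes on 1 strand, at least 60 and at most 100000 bases apart and well above background in both channels. Of 24 such members, the 3′-most probe was higher than the 5′-most on both arrays in 14 (58.3%) and lower on both in 4 (16.7%). Over 992 other genes these shares were 37.5% and 21.9%. The median difference was 0.70 and 0.23 in members and 0.16 and 0.03 in the other genes. Brightness moved with position: the 3′-most probe was the brighter in 17 of 24 members (70.8%) and in 72.2% of the other genes. All 14 members with a higher 3′ probe were among those 17 (82.4%), against 41.8% of the other genes with a brighter 3′ probe. Among other genes with a dimmer 3′ probe, 26.4% had it higher on both arrays and 29% lower on both. Of the 7 members whose 3′ probe was dimmer, 0 had it higher on both arrays and 3 (42.9%) had it lower on both. Rpl22 was the clearest of these, with 1.01 and 0.71 at the bright 5′ probe and -0.29 and -0.78 at the 3′ probe. Among pairs in which both probes were as bright as the lower quartile of the members, the 3′ probe was higher on both arrays in 7 of 9 members and 6 of 7 other genes. Of those 7, 3 also encode ribosomal proteins, which the rule leaves out or which carry an older name, and without them the count was 3 of 4. Probe position, brightness and RNA integrity were not tested as causes.

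**Figure D4:**
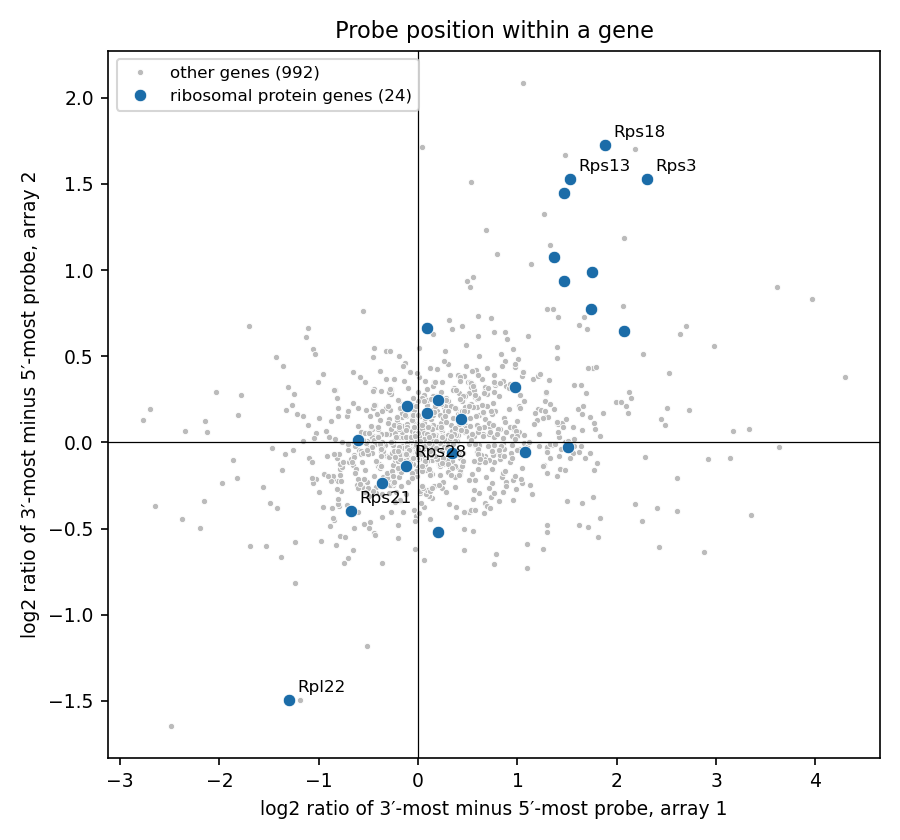
For genes with 2 or more kept probes, the log2 ratio (knockout over wild type) of the 3′-most probe minus that of the 5′-most probe, on array 1 (horizontal axis) and array 2 (vertical axis); large points are 24 ribosomal protein genes and small points 992 other genes. In 14 members both differences are above 0, and Rpl22 is the lowest of the members.

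Brightness also moved with the ratio between genes. The dimmest 27 members had medians of -0.03 and -0.05, the middle 26 had 0.70 and 0.44 and the brightest 26 had 0.47 and 0.74. Of the brightest 26, 23 were above 0 on both arrays and 0 were below on both. Other genes as bright as the members' lower quartile, 101 in number, had medians of -0.13 and 0.29, and 31.7% of them were above 0 on both arrays and 19.8% below on both. The 59 members of that brightness had medians of 0.45 and 0.53, with 72.9% above 0 on both and 8.47% below on both. In the scanner's paired-gain reading, very bright spots are taken from a low-gain scan and scaled up. This was so for 75.4% and 77.5% of member spots in the knockout channel and 52.8% and 70.4% in the wild-type channel, but for 3.19% and 3.43% and for 0.592% and 1.20% of other gene spots. The part of this reading in the ratios was not tested, and no member spot was saturated.

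The median of the members was above that of all genes in every setting tried, on both arrays, but its size varied. Without background correction the members were at 0.10 and 0.43. With the scanner software's own log ratios they were at 0.43 and 0.15. Centring each array on its median, with no loess, put all genes at 1.11 and 0.17 and the members at 1.99 and 1.20, a lead of 0.88 and 1.02. Leaving the member spots out of the loess fit gave 0.45 and 0.51. The choice of probe mattered as well: the mean of all kept probes gave 0.28 and 0.23, the 5′-most probe 0.30 and 0.22 and the 3′-most probe 0.39 and 0.36. With the 5′-most probe, 38 members were above 0 on both arrays and 25 below on both, against 47 and 13 with the brightest.

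**Figure D5:**
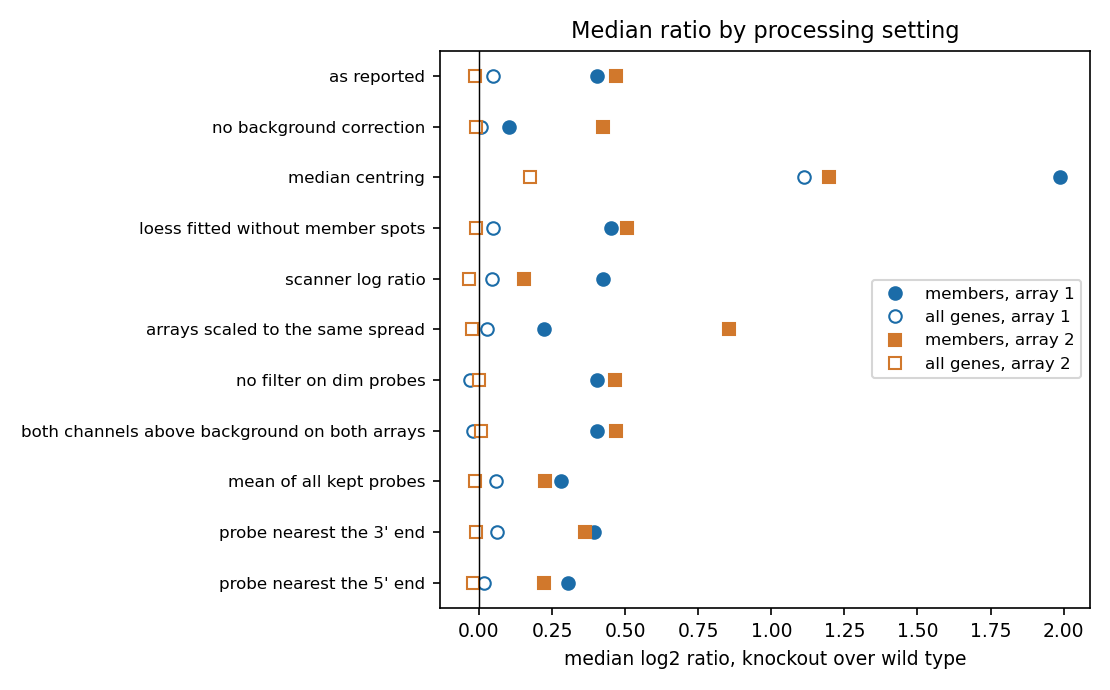
Median log2 ratio of knockout over wild type under the processing settings drawn: filled symbols for the ribosomal protein genes, open symbols for all tested genes, circles for array 1 and squares for array 2. Not drawn are the intensity trend, the names in the files, the omission of saturated spots and the omission of 1 array. Members lie right of all genes in each row, by 0.88 and 1.02 under median centring and by 0.29 and 0.24 with the probe nearest the 5′ end.

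Other genes of the translation machinery differed between arrays. Of 38 translation factors, 0 passed in the limma test; their median was 1.08 on array 1 and -0.06 on array 2, and 11 were above 0 on both arrays. Eif1, which helps select the start codon, was at 1.16 and 0.64, and Pabpc1, the poly(A)-binding protein, at 2.49 and 0.57 (adjusted p = 0.0989, limma). Of 43 measured ribosome biogenesis genes 0 passed, with medians of 0.27 and -0.21 and only 7 above 0 on both arrays. Emg1, an rRNA methyltransferase, was at -0.78 and -0.76. The 74 measured mitochondrial ribosomal protein genes had medians of 0.12 and 0.00, with 26 above 0 on both arrays and 20 below, and 0 passed. Mrpl2 was the lowest, at -0.99 and -1.42.

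The 21 measured genes of the mTOR pathway and the MYC network had medians of 0.60 and -0.04, with 6 above 0 on both arrays and 5 below on both. Ddit4, an inhibitor of mTOR, was at 1.73 and 0.87, and Mxd1, an antagonist of MYC, at 0.72 and 1.40, and neither passed. Each list's genes share the same 4 RNA samples as the cytosolic ribosomal proteins, and differences between lists were not tested.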

How the data were processed

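RNA of naïve CD8+ T cells was extracted with Trizol and columns and put through linear amplification (Agilent) and chemical ULS labelling (Kreatech), as stated in the labels' protocols. The submitters' processing notes name Agilent Feature Extraction, version 9.5.3.1. The deposited scanner files hold linear intensity values and local backgrounds per spot, not normalised, per the file headers, and log10 ratios made by the scanner software. A deposited value table of log10 ratios equals the scanner's to within 0.005. Coordinates are mm8, per the array annotation.

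Background correction was by normexp (offset 50) and normalisation of log2 ratios by loess, in limma 3.58.1 (R 4.3.3), giving controls and outlier spots weight 0. Spots of a probe were averaged, and the brightest kept probe stood for its gene. Members kept the name in the files. Other probes were named through RefSeq (24375 by accession, 6301 by current and 2426 by older symbol), and 8072 kept the file's name. Mean ratios were tested with lmFit and eBayes over all genes, two-sided. Channel intensities come from loess and Aquantile.

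Named genes were every passing member, per subunit the 6 highest and lowest of 1 sign on both arrays by the smaller ratio, the 6 widest and 3 narrowest ranges over probes, examples from roles and lists, and Bcl11b. Others were named after their values were seen, and some genes are not reported here. The members and gene lists were chosen with earlier results of these data known. Nothing in the labels says that the samples came from separate animals. The reported p-values rest on the spread between these 2 arrays pooled over all genes, not on each gene's own spread. Only 2 arrays limit the precision. The fit was tested on simulated data. Both arrays share a slide and a scan, so no batch could be tested.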

Additional observations from a re-analysis of the deposited data

How the results depend on the processing

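The count of 2 members past the threshold varied with the setting. It was 9 with median centring and 9 with an intensity trend in the variance prior. It was 0 with the scanner log ratio, with arrays scaled to the same spread and with no filter on dim probes, settings in which no gene of any kind passed in limma. In these 3 settings 2, 26 and 35 members had an unadjusted p under 0.05. It was 5 when other genes kept the names in the files (Rps7, Rps27l, Rps13 and Rps16 up, Rpl21 down), an alternative added after the data were seen. Then 221 genes rose and 37 fell in all, against 115 and 23. Over all genes, 27 rose and 8 fell without background correction, 64 and 1 with median centring, 25 and 14 with both channels above background, and 263 and 37 with the trend. Rps7 lost its call without background correction and with both channels required above background, where Rps13 passed beside Rps27l.

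The members' median of 0.50 over the mean of both arrays became 0.32 without background correction, 1.66 with median centring, 0.34 with the scanner log ratio, 0.55 with scaled arrays and 0.28 with the mean of all kept probes. It was 0.44 with the 3′-most and 0.19 with the 5′-most probe, both added after the data were seen. Leaving out 1 array gave 0.40 to 0.47. Large minus small subunit (-0.09) became -0.25 with the mean of all kept probes and -0.20 with the 3′-most probe, and leaving out 1 array gave -0.14 to -0.03. The causes were not tested. Of 28 named members, 9 changed sign with median centring, 5 with the 5′-most probe, 3 with the 3′-most and 2 with the mean of probes. Median centring also put the median mean ratio of all genes at 0.68, against 0.04 as reported. No test could be made without a replicate. No paired analysis was possible because the reported test already works on the knockout to wild-type ratio within each array, so that it is itself paired and leaves no replicate block to add.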
